A study of Mus musculus with 14 samples.

Results

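Natural killer (NK) cells sorted from 4T1 mammary tumours were compared with NK cells sorted from spleens of mice without a tumour. The comparison uses 7 of the 14 samples of the series, 4 libraries of tumour NK cells and 3 of healthy spleen NK cells, chosen by their labels. It was read across 8471 of 10210 listed genes that passed a filter on low counts. The 4 libraries of spleen NK cells from tumour-bearing mice served as the second control, to show which differences from a tumour-free mouse that control does not show. Both spleen groups are named as controls by the submitters, who state that replicates are independent.

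All mice were BALB/c and 8 weeks old at the start of the experiment. The tumour-bearing mice were females given 100000 4T1-GFP cells in the lower left mammary fat pad. 4T1, a mammary carcinoma line of BALB/c origin, models triple-negative disease, and the GFP tag served to sort the carcinoma cells away. The healthy mice had no tumour. The labels give no time of tumour growth, so the age of the tumour-bearing mice at collection is not known. Tumours were cut up and treated with collagenase A plus DNase for 20 min at 37 °C. Spleens of both kinds were crushed and freed of red cells on ice. Differences between tumour NK and either spleen group therefore cannot be told apart from differences in tissue handling. The 2 spleen groups were handled alike. NK cells of all groups went through magnetic enrichment and were sorted as CD45+ NKp46+ cells negative for GFP, EPCAM, CD3, CD31 and CD14.

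NK cells are innate lymphocytes that kill transformed or infected cells with perforin and granzymes and secrete interferon gamma and chemokines. Their activity is set by the balance of activating and inhibitory receptors. In the spleen most are circulating cells that express the egress receptor S1pr5, whereas NK cells inside tissues can take on features of resident type 1 innate lymphoid cells. A tumour can also act on NK cells at a distance, through blood-borne factors and myeloid cells that reach the spleen. Cells from a tumour-bearing spleen may therefore already differ from those of a mouse with no tumour.

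Total counts over listed genes ran from 559688 to 1775355 in healthy spleen NK, from 712439 to 1838769 in tumour NK and from 1287123 to 1966963 in tumour-bearing spleen NK. Healthy replicate 1 was the shallowest library. A gene with 0 counts could have had up to 3, which is 1.53 to 5.36 CPM (counts scaled to the size of the library) depending on the library, counting error only. This limit uses total counts. Levels below use library sizes adjusted by factors of 0.91 to 1.17, so the limit differs somewhat on that scale. The spleen libraries also split across their groups. Healthy replicate 1 and tumour-bearing spleen replicates 1 and 2 lay on one side of the first component of the group-centred spleen data, which held 61.3% of its variance. On that side each library's deviation from the overall mean correlated with the GC content of the genes at rho from −0.264 to −0.179, against 0.26 to 0.496 in the other 4 spleen libraries and −0.312 to −0.124 in the tumour libraries. The labels name no batch that matches this split. Some results that lean on healthy replicate 1 are given with and without it.

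Tumour NK cells differed from healthy spleen NK cells in 1399 genes that were higher and 1183 that were lower (adjusted p under 0.05 by edgeR's quasi-likelihood test with Benjamini-Hochberg adjustment, here termed called). These are 16.5% and 14.0% of the genes tested. Against the tumour-bearing spleen the same tumour libraries gave 1338 higher and 1115 lower genes, 15.8% and 13.2%. Because both comparisons use the same tumour libraries, their counts are not independent. Under upper-quartile scaling, which moved the median of all genes by −0.10 on the log2 scale, 42.4% of the calls against healthy spleen were higher rather than 54.2%. With an offset for GC content and length the shift was −0.12 and the share 44.6%. With healthy replicate 1 as the only control, 761 genes were called higher and 338 lower.

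The 10 largest rises were taken among called genes whose groups did not overlap and whose lower group averaged at least 3 counts per library. Gzmc, which encodes granzyme C, had 15.4, 1.60 and 2.48 CPM in healthy replicates 1 to 3 and 943, 697, 565 and 857 CPM in tumour replicates 1 to 4. All tumour libraries lay far above all healthy ones, and the highest healthy value was that of the shallow replicate 1. Gzmc rose by 7.38 on the log2 scale (SE 0.698, edgeR quasi-likelihood adjusted p 3.52e-05). Lilr4b and Lilrb4a, near-identical leukocyte immunoglobulin-like receptors whose reads may be split between them, rose by 5.52 (SE 0.519) and 5.09 (SE 0.5) on the log2 scale. Lilr4b stood at 5.78 to 21.6 CPM in healthy and 376 to 463 CPM in tumour libraries.

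Fosb and Nr4a3, genes induced soon after receptor signalling or stress, were among them. Fosb, an AP-1 subunit, had 12.3, 16.1 and 4.13 CPM in healthy libraries and 425, 539, 459 and 545 CPM in tumour libraries. Nr4a3, an orphan nuclear receptor, rose from 12.3 to 52.4 CPM in healthy libraries to 803 to 1010 CPM in tumours. Neither gene overlapped between the groups, and the log2 fold changes were 5.44 (SE 0.481) and 5.12 (SE 0.378). Cxcl10, a chemokine induced by interferon, rose from 3.21 to 6.16 CPM to 113 to 204 CPM, a log2 change of 5.04 (SE 0.356). Plac8, Krt83, Rgs16 and Litaf completed the 10 largest rises, with log2 fold changes of 6.08, 5.70, 5.69 and 5.01.

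Rgs16, a regulator that limits G-protein signalling, showed a stepwise pattern. It had 9.25, 0.535 and 3.30 CPM in healthy spleens, 20.6, 21.8, 25.2 and 20.2 CPM in tumour-bearing spleens, and 152, 152, 136 and 211 CPM in tumours. No library of a group overlapped with another group. Against the healthy spleen the log2 fold change was 5.69 (SE 0.378), and against the tumour-bearing spleen it was 2.87 (SE 0.235). The 2 controls differed from each other by 2.81 (SE 0.445, edgeR quasi-likelihood adjusted p 0.002). Nr4a3, Lilrb4a and Plac8 differed between the controls by 1.17, 1.19 and 1.78, not called with all libraries. Without healthy replicate 1 these differences were 1.75, 2.17 and 2.63 and were called. Gzmc, Lilr4b and Litaf had 1.62, 1.42 and 1.03 between the controls, and Krt83, Fosb and Cxcl10 −0.81, 0.27 and 0.11, not called with all libraries.

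The 10 largest falls, taken by the same rule, included S1pr5. S1pr5, the sphingosine-1-phosphate receptor that lets NK cells leave tissues, had 522, 520 and 430 CPM in healthy libraries and 39.4, 44.9, 37.9 and 52.3 CPM in tumour libraries, with no overlap. It fell by 3.50 on the log2 scale (SE 0.174, edgeR quasi-likelihood adjusted p 2.61e-11). G0s2, an inhibitor of the triglyceride lipase ATGL, fell from 97.1 to 143 CPM to 7.82 to 15.9 CPM, by 3.59 (SE 0.225). Rhpn1, Cdh22, Lsm11, Brat1 and Gp1bb fell by 3.19, 3.00, 2.83, 2.75 and 2.74. The fall of Brat1 was not called with healthy replicate 1 as the only control, at −1.05.

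3 of the 10 largest falls were already present in the spleen of tumour-bearing mice. Denn2b had 80.1, 86.1 and 71.8 CPM in healthy spleens, 14.5, 8.37, 13.4 and 3.62 CPM in tumour-bearing spleens, and 0.82, 4.35, 6.01 and 0.951 CPM in tumours. It fell by 4.60 (SE 0.414) from healthy spleen to tumour and by 2.97 (SE 0.327) from healthy to tumour-bearing spleen. Gpr25, an orphan G-protein coupled receptor, stood at 40.1, 58.3 and 57.8 CPM in healthy spleens against 9.49 to 17.0 CPM in tumour-bearing spleens and 4.75 to 9.02 CPM in tumours. It fell by 2.99 (SE 0.286) against the healthy control and by 0.87 (SE 0.311) against the tumour-bearing control. Cym, which encodes chymosin, had 55.5 to 71.7, 18.8 to 28.2 and 2.85 to 6.56 CPM in the same order. For these genes the tumour-bearing control showed a smaller fall, and the difference between the controls was called for all 3. The falls of Denn2b and Gpr25 against the tumour-bearing control were less firm. Both calls were lost without tumour-bearing spleen replicate 3, at −1.43 and −0.64, and without tumour replicate 1 or 4.

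**Figure D1:**
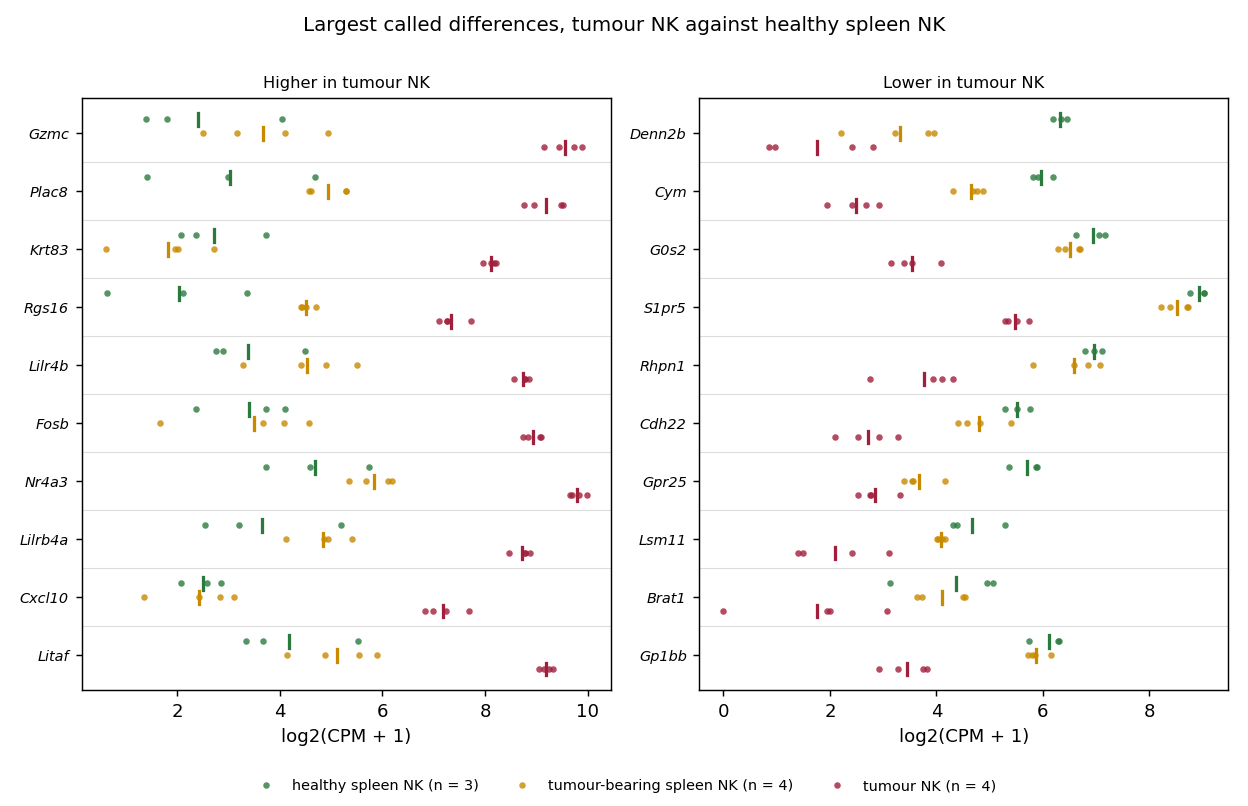
Level of the 10 genes with the largest called rise (left) and fall (right) in tumour NK against healthy spleen NK, as log2(CPM + 1) on the horizontal axis. Points are libraries and short vertical lines are group means, for healthy spleen, tumour-bearing spleen and tumour NK; tumour points lie apart from healthy points in all 20 genes, and Denn2b, Gpr25 and Cym of the tumour-bearing spleen lie below the healthy libraries.

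The 2 controls themselves differed in 104 genes that were higher and 30 that were lower in the tumour-bearing spleen, 1.23% and 0.354% of the genes tested. For these genes the choice of control changed the size of the tumour difference by an amount that was called. A gene without such a call may depend on the control too. The counts rested on few healthy libraries. Without healthy replicate 2 they were 35 and 7, and without replicate 3 they were 59 and 8. With the side of the split as a block in the 7 spleen libraries they were 443 and 248. The side was read from these same counts, so that fit has less spread by construction and its larger counts are not further evidence.

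A first set of genes was higher in NK cells of both tissues from tumour-bearing mice, so that only the healthy control gave a call. Ccl4, a chemokine that recruits T cells and myeloid cells, had 339, 448 and 485 CPM in healthy spleens. It had 1768, 1621, 1977 and 1742 CPM in tumour-bearing spleens and 2022, 1123, 1597 and 1638 CPM in tumours. Every library of the tumour-bearing mice exceeded every healthy library, while the tumour and tumour-bearing spleen libraries overlapped. Ccl4 rose 3.75-fold against the healthy control (log2 1.91, SE 0.196, edgeR quasi-likelihood adjusted p 4.15e-07). Against the tumour-bearing control the log2 value was −0.15 (SE 0.169, adjusted p 0.528 by the same test).

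Ifng, the gene of interferon gamma, followed the same order. Its levels were 111, 188 and 166 CPM in healthy spleens, 258 to 470 CPM in tumour-bearing spleens and 303 to 362 CPM in tumours. It rose 2.12-fold against healthy spleen (log2 1.08, SE 0.197), and the value against the tumour-bearing spleen was −0.11 (SE 0.173). The inhibitory lectin-like receptor Klrb1b had 16.9, 20.9 and 15.7 CPM in healthy spleens, 46.8 to 87.5 CPM in tumour-bearing spleens and 57.1 to 125 CPM in tumours. It rose 4.54-fold against the healthy control and stood at a log2 value of 0.33 (SE 0.232) against the other. Klrb1b belongs to a family of near-identical genes, so its reads may be shared with relatives.

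The other genes named in this set were mostly of low level. Egr2, a transcription factor downstream of antigen and activating receptors, had 9.25, 4.82 and 1.65 CPM in healthy spleens, 16.6 to 24.0 CPM in tumour-bearing spleens and 12.4 to 18.9 CPM in tumours. Its log2 fold change against healthy spleen was 1.71 (SE 0.402), and it was 0.74 and not called with healthy replicate 1 as the only control. Against tumour-bearing spleen Egr2 was not called at −0.46 (SE 0.281). It was called lower there with the GC and length offset, at −0.746, and with the replicate block and that offset, at −0.744. St3gal3, a sialyltransferase, and H2-Q8, a class I gene with close paralogues, rose by 2.14 (SE 0.392) and 1.75 (SE 0.433). E2f1, Ccnf and Gins2, which act in the entry to and course of the cell cycle, also rose, E2f1 by 1.86 and Ccnf by 1.58. Their healthy levels were 1.54 to 5.88 CPM, close to the limit of a 0 count, and the calls of E2f1, Ccnf and Gins2 were lost in 3, 5 and 5 of the 15 alternatives that gave a value. Their calls between the spleens were lost in 9, 9 and 6 of 16.

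Genes lower in both tissues of the tumour-bearing mice formed the counterpart. Cited2, a transcriptional co-regulator that limits HIF-1, had 231, 197 and 192 CPM in healthy spleens, 81.3 to 112 CPM in tumour-bearing spleens and 60.7 to 84.2 CPM in tumours. It fell by 1.45 on the log2 scale against healthy spleen (SE 0.155, edgeR quasi-likelihood adjusted p 7.5e-07), and was not called against the tumour-bearing spleen at −0.36 (SE 0.148, adjusted p 0.0745). In 4 of 16 alternatives it was called lower there too, at −0.45 to −0.68, among them upper-quartile scaling and leaving out tumour-bearing spleen replicate 3. Tbxa2r, the thromboxane A2 receptor, had 18.5, 13.4 and 17.3 CPM in healthy spleens, 3.05 to 6.51 CPM in tumour-bearing spleens and 2.85 to 7.25 CPM in tumours. It fell by 1.56 (SE 0.378) against the healthy control, where the other control gave 0.11 (SE 0.402).

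Carns1, which makes carnosine, fell by 1.42 (SE 0.227) and Slc25a23, a mitochondrial carrier, by 1.15 (SE 0.267). Letm2, Smpd5, Arl5c and Ip6k1 fell by 1.02, 0.83, 0.66 and 0.63. In Arl5c the tumour and healthy libraries overlapped, and its call was lost in 5 of 16 alternatives, that of Letm2 in 6. With healthy replicate 1 as the only control, an arm of 1 library, Tbxa2r, Slc25a23, Letm2, Smpd5, Arl5c and Ip6k1 were not called. The log2 values there were −1.76 for Tbxa2r, −0.67 for Slc25a23, −1.25 for Letm2, −0.59 for Smpd5, −0.19 for Arl5c and −0.36 for Ip6k1. The calls of Letm2, Arl5c, Ip6k1 and Tbxa2r between the spleens were lost in 10, 6, 6 and 5 of 16 alternatives.

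**Figure D2:**
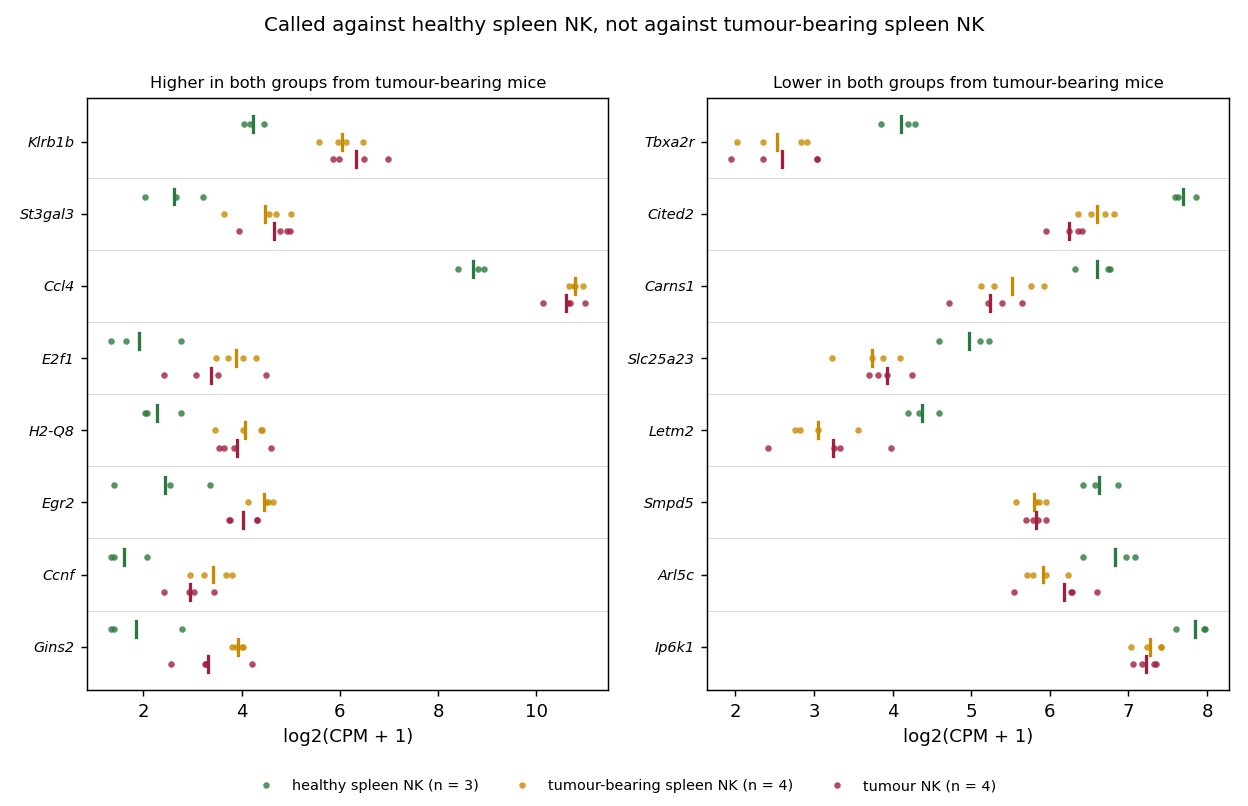
Level, as log2(CPM + 1), of the genes called in tumour NK against healthy spleen NK and in tumour-bearing against healthy spleen NK, but not in tumour NK against tumour-bearing spleen NK. Points are libraries and short lines are group means; in Ccl4, Klrb1b and Cited2 the tumour and tumour-bearing spleen points share a range that no healthy library reaches.

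The direction of cell cycle genes depended on the control. Of 36 tested genes of the cell cycle and DNA replication, 17 rose in tumour NK against healthy spleen NK, 47.2% beside 16.5% over all genes. The median log2 fold change of the list was 0.84, beside 0.02 over all genes. Against the tumour-bearing spleen 3 rose and 9 fell, 8.33% and 25.0% beside 15.8% and 13.2% over all genes, with a median of −0.44. The tumour-bearing spleen stood above the healthy spleen in 14 of the 36 (38.9%, beside 1.23% over all genes), with a median of 1.13. No member was called lower against healthy spleen in either tissue, 0 also at an unadjusted p under 0.05 in edgeR and 0 in DESeq2. Other alternatives called up to 1 member lower in tumour NK and 0 in the tumour-bearing spleen. The value against healthy spleen was positive in 32 of the 36 in tumour NK and in all 36 in the tumour-bearing spleen. The signs of these medians held in all 16 alternatives, from 0.67 to 0.98, from −0.63 to −0.33 and from 1.01 to 1.26. The count of rises against healthy spleen did not hold as well: it was 11 with only the 2 groups in the fit, 9 without healthy replicate 2, 7 without tumour replicate 3, and 3 with healthy replicate 1 as the only control. Without healthy replicate 2 the count between the spleens fell to 2.

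Top2a, the topoisomerase that untangles replicated DNA, had 29.3, 18.7 and 22.3 CPM in healthy spleens, 55.3 to 71.7 CPM in tumour-bearing spleens and 44.9 to 76.4 CPM in tumours. It rose 2.62-fold against the healthy control (log2 1.39, SE 0.226), and the tumour-bearing control gave −0.05 (SE 0.178). Mki67, the Ki-67 proliferation antigen, had 13.9, 15.5 and 14.9 CPM in healthy spleens, 36.2 to 51.8 CPM in tumour-bearing spleens and 30.3, 23.2, 47.5 and 17.1 CPM in tumours. Tumour replicate 3 was the highest of its group in Mki67 and Top2a. Mki67 rose by 1.04 (SE 0.307) against healthy spleen and had −0.48 (SE 0.241) against tumour-bearing spleen.

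Uhrf1 and Ccna2 had means of 1.76 and 1.62 CPM in healthy spleens, below 3 counts per library, and 6.07 and 8.57 CPM in tumours. In 6 genes the tumour libraries were called above one control and below the other. Kif11, Ube2c and Birc5, which act in spindle assembly, ubiquitination by the anaphase-promoting complex and chromosome segregation, were among them. Ube2c had 6.16, 8.03 and 14.9 CPM in healthy spleens, 30.7 to 46.5 CPM in tumour-bearing spleens and 12.3, 23.2, 25.2 and 23.8 CPM in tumours. Tumour replicate 1 fell within the healthy range and the other tumour libraries lay between the 2 spleen groups. Its log2 fold change was 1.08 (SE 0.333) over healthy and −0.83 (SE 0.25) under tumour-bearing spleen. Kif11 and Birc5 had 1.09 and 0.93 over healthy spleen, calls that were lost in 12 of 15 and 10 of 16 alternatives. The rise of Ube2c was lost in 3 of 16.

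The other 3 were Nrgn, Ugt1a6b and Cd3d. Nrgn, a calmodulin-binding protein, had 106, 132 and 150 CPM in healthy spleens, 443, 487, 612 and 676 CPM in tumour-bearing spleens, and 260, 235, 223 and 322 CPM in tumours, with no overlap. It rose by 0.99 (SE 0.185) against the first and fell by 1.09 (SE 0.162) against the second. Ugt1a6b had 1.41 and −0.52, and shares its last exons with other Ugt1a genes. Cd3d, a subunit of the T cell receptor complex that NK cells can also transcribe, had 0.82 and −0.65, although the sort removed cells with surface CD3. The calls of Cd3d were lost in 6 of 16 alternatives against healthy and 5 of 16 against tumour-bearing spleen, and the fall of Ugt1a6b in 5 of 16.

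Not every proliferation gene behaved this way. Cenpa, the centromeric histone, had 64.7 to 67.7 CPM in healthy spleens, 93.7 to 97.6 CPM in tumour-bearing spleens and 158 to 198 CPM in tumours. It rose against both controls, by 1.41 (SE 0.141) and 0.89 (SE 0.122). Cdt1, a licensing factor for replication origins, and Pcna, the sliding clamp, also rose against both, by 1.11 and 0.77 over healthy spleen and by 0.88 and 0.42 over tumour-bearing spleen.

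**Figure D3:**
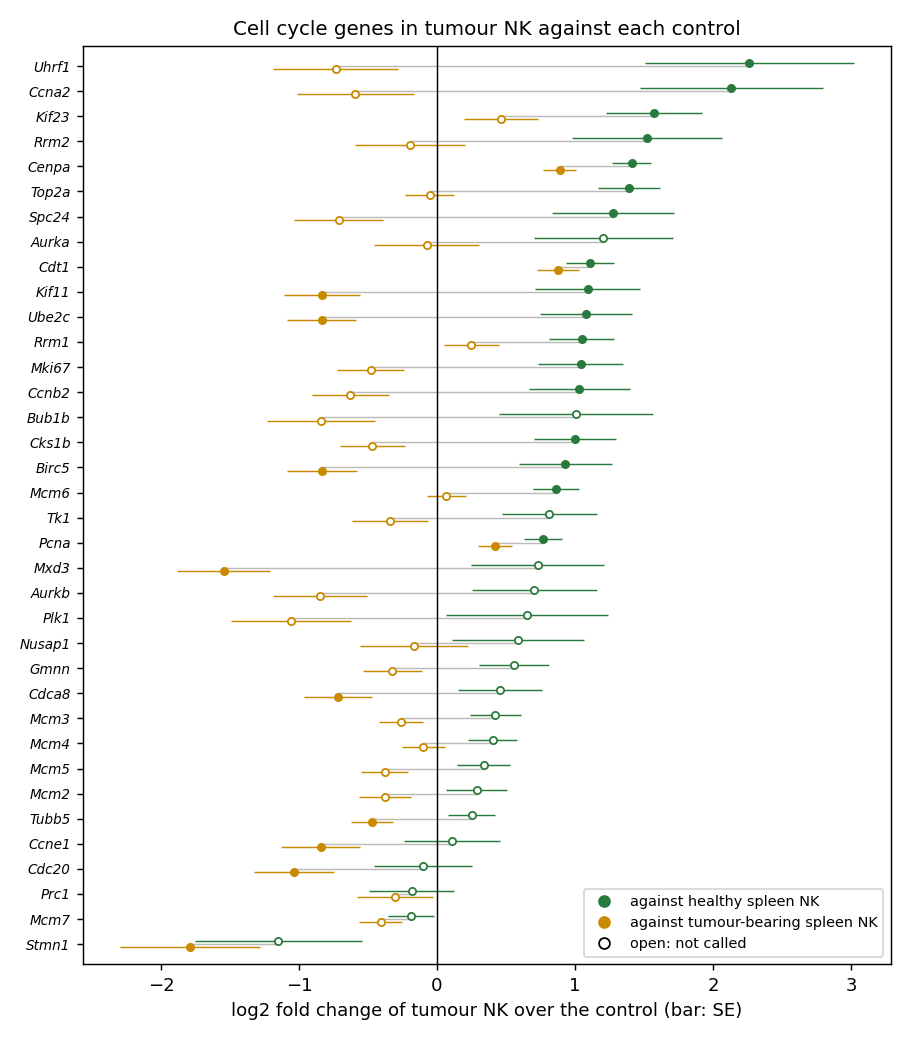
Log2 fold change of tumour NK over healthy spleen NK (green) and over tumour-bearing spleen NK (orange) for the 36 tested cell cycle genes, with SE as bars; filled points were called. The green points lie to the right of the orange points in every gene, and the same tumour libraries enter both.

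Promoters of cell cycle genes are shown because these genes moved together between the spleens. RefSeq promoter windows (GRCm38.p6) were matched for 34 of 41 listed members, giving 37 windows. The core of the cell cycle homology region, TTTGAA on either strand, was present within 250 bases before the start in 10 of them (27.0%), beside 16.0% of all 32851 windows. It was in 22.9% of windows of interferon response genes, 5.88% of immediate early genes and 5.71% of hypoxia genes. The hypoxia response element core, ACGTG, was in the same share of cell cycle windows, 27.0%, beside 16.6% of all. A match is only a description of the letters. The 3 windows below belong to the called members with the motif and the largest rise over healthy spleen among the chromosomes used. Not all chromosomes were used for this choice. The windows are each on the strand of the gene, with the motif or its reverse complement in capitals. They lie at chr11:99024190-99024439 on the minus strand, chr19:37376132-37376381 on the plus strand and chr2:164769679-164769928 on the plus strand.
Top2a: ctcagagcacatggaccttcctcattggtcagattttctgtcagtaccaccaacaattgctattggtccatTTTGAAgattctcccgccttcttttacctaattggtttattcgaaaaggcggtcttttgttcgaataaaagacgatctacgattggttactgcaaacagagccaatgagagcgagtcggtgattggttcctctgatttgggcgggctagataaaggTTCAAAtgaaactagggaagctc
Kif11: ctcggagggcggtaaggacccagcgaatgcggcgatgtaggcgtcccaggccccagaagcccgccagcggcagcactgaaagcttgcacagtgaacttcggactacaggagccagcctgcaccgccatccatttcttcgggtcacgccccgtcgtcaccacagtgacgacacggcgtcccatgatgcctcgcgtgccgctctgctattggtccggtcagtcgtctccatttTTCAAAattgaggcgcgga
Ube2c: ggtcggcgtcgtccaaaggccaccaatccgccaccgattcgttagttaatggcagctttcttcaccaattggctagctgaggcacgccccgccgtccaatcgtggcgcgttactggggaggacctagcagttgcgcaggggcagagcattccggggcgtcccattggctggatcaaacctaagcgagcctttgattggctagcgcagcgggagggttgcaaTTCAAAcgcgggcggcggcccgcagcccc
In all 3 windows the last match ended 13 to 23 bases before the start.

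The opposite case was a gene raised in the tumour-bearing spleen and not called between tumour and healthy spleen. There the tumour-bearing control gave a fall in tumour NK that the healthy control did not show. Hsph1, a heat shock protein of the Hsp110 family, had 90.9, 88.8 and 70.2 CPM in healthy spleens, 184, 277, 181 and 218 CPM in tumour-bearing spleens and 83.6, 69.6, 110 and 108 CPM in tumours. Tumour and healthy libraries overlapped, and the log2 value between them was 0.18 (SE 0.194), with −1.19 (SE 0.17) against the tumour-bearing spleen. Stip1, a co-chaperone of Hsp90, had 0.09 (SE 0.141) and −0.94 (SE 0.127). Ccl3, a chemokine close to Ccl4 in sequence and function, had 504, 601 and 593 CPM in healthy spleens, 1190 to 1657 CPM in tumour-bearing spleens and 501 to 633 CPM in tumours.

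Ccl3 and Ccl4 thus differed inside the tumour while both rose in the tumour-bearing spleen. Ccl3 gave −0.05 (SE 0.157) against the healthy and −1.29 (SE 0.146) against the tumour-bearing control. Mxd3, Cenpn, H2ac8 and Kif22 met the same rule, with log2 values of 0.73, 0.50, −0.12 and 0.47 against healthy spleen, none of them called, and falls of 1.55, 1.22, 1.77 and 0.91 against tumour-bearing spleen. Egr3 met it too but lay between the controls, with tumour libraries at 7.21 to 13.04 CPM, all above the healthy ones at 1.54 to 5.78 CPM. It gave 1.31 against healthy spleen, called with the replicate block at 1.48, and a fall of 1.37 against tumour-bearing spleen. Ttc39c and Camk2g were the 2 named genes lower in the tumour-bearing spleen and not called between tumour and healthy spleen, at −0.18 and −0.25. The call between the spleens, which puts a gene in this set, was lost for Cenpn in 8 of 14 alternatives, for H2ac8 in 8 of 16, for Ttc39c in 10 of 16 and for Camk2g in 3 of 16. A p-value that misses the threshold does not show that the levels were the same.

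Most secreted effector genes rose in tumour NK against both controls. Over all genes tested, the shares to set beside this and the lists below were 16.5% higher and 14.0% lower against healthy spleen. Against tumour-bearing spleen they were 15.8% and 13.2%. Among 18 cytokines, chemokines and death ligands 15 rose and 1 fell against healthy spleen (median 2.03), and 11 rose and 2 fell against tumour-bearing spleen (median 1.19). Xcl1, which attracts cross-presenting dendritic cells, had 163, 249 and 328 CPM in healthy spleens, 596 to 798 CPM in tumour-bearing spleens and 3051, 2194, 1804 and 2696 CPM in tumours. The groups did not overlap, and the log2 fold changes were 3.29 (SE 0.24) and 1.75 (SE 0.199). Spp1, osteopontin, had 2.48 to 4.62, 21.8 to 29.9 and 33.7 to 77.0 CPM in the same order, with 3.96 (SE 0.418) and 1.09 (SE 0.262). Ccl5, a chemokine stored in NK cells, fell by 1.03 (SE 0.193) and 1.08 (SE 0.182), from 21060 to 30380 CPM in healthy libraries to 10000 to 14130 CPM in tumours. Ccl1 had 0 CPM in all healthy libraries and a mean of 15.7 CPM in tumours.

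Of 21 granule proteins 8 rose and 4 fell against healthy spleen, 38.1% and 19.0% beside 16.5% and 14.0% over all genes. The falls numbered 2 without healthy replicate 2 and 0 with healthy replicate 1 as the only control. Gzmb, granzyme B, had 442, 543 and 356 CPM in healthy spleens, 1031 to 1181 CPM in tumour-bearing spleens and 2298, 1949, 1931 and 2346 CPM in tumours. It rose 4.76-fold over healthy spleen (log2 2.25, SE 0.173) and 1.87-fold over tumour-bearing spleen (log2 0.91, SE 0.148). The difference between the controls, 1.34 (SE 0.167), was called. Prf1, perforin, fell by 0.78 (SE 0.203), from 1033 to 1206 CPM in healthy spleens to 478 to 722 CPM in tumours. Gzmm fell by 1.63 and Gzma was not called at −0.37. Gzmd, Gzme and Gzmf had means of 0.514, 0.514 and 0 CPM in healthy and 55.3, 29.4 and 17.6 CPM in tumour libraries, and as close paralogues of Gzmc they may share reads with it.

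Of 17 inhibitory receptors 9 rose and 1 fell against healthy spleen (median 1.81), 52.9% and 5.88% beside 16.5% and 14.0% over all genes. Against tumour-bearing spleen 7 rose and 1 fell (median 0.29), 41.2% and 5.88% beside 15.8% and 13.2%. With healthy replicate 1 as the only control 5 rose and 2 fell and the median was 0.51, and without that replicate it was 2.13. Tigit, which binds the poliovirus receptor, had 6.16, 4.28 and 2.48 CPM in healthy spleens, 17.9 to 26.8 CPM in tumour-bearing spleens and 63.1, 62.3, 42.1 and 55.1 CPM in tumours. It rose by 3.74 (SE 0.314) and 1.26 (SE 0.205). Lag3, a receptor for class II molecules, had 0, 3.21 and 4.13 CPM in healthy spleens and 11.5, 10.1, 53.5 and 26.6 CPM in tumours. It was called against healthy spleen at 3.19 (SE 0.896) and stood at 0.02 (SE 0.543) against tumour-bearing spleen, but the difference between the spleens was not called (edgeR quasi-likelihood adjusted p 0.141). Ctla4 and Pdcd1 had means of 1.03 and 0.692 CPM in healthy and 104 and 16.6 CPM in tumour libraries. Klrg1, a marker of mature NK cells, fell by 1.51 (SE 0.152).

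Of 22 activating receptors and adaptors 5 rose and 5 fell against healthy spleen, 22.7% each way, near the shares of 16.5% and 14.0% over all genes. The falls numbered 9 without healthy replicate 1, 3 without healthy replicate 2 and 11 with the GC and length offset. Tnfrsf9, the costimulatory receptor 4-1BB, had 23.1, 28.9 and 28.9 CPM in healthy spleens, 79.3 to 119 CPM in tumour-bearing spleens and 277, 359, 246 and 341 CPM in tumours. It rose by 3.46 (SE 0.2) and 1.56 (SE 0.152), and the 2 controls differed by 1.91 (SE 0.199). Icos, another costimulatory receptor, rose by 4.40 (SE 0.441) against healthy spleen and by 4.42 (SE 0.368) against tumour-bearing spleen. Ncr1, which encodes NKp46, the protein used to sort, fell by 0.93 (SE 0.184). Klrb1c, the gene of NK1.1, fell by 1.13 (SE 0.124), and Tnfrsf4 by 1.30.

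Homing genes were called in both directions, 5 of 20 up (25.0%) and 9 down (45.0%) against either control. Over all genes 16.5% rose and 14.0% fell against healthy spleen, and 15.8% and 13.2% against tumour-bearing spleen. Ccr7, a lymph node homing receptor, and Cxcr4, the receptor of Cxcl12, rose by 3.97 and 2.56 against healthy spleen. Cx3cr1, the fractalkine receptor, depended on the control in size. It had 50.9, 42.8 and 40.4 CPM in healthy spleens, 89.9 to 151 CPM in tumour-bearing spleens and 19.2 to 34.2 CPM in tumours, a fall of 0.77 (SE 0.236) against the first and 2.37 (SE 0.202) against the second. Klf3 fell by 1.21 (SE 0.15) and 0.60 (SE 0.141). S1pr1 had 10.8 to 15.7, 5.06 to 8.38 and 3.80 to 8.20 CPM, and fell by 1.24 (SE 0.355) against healthy spleen. The difference between the controls in S1pr1 was not called (edgeR quasi-likelihood adjusted p 0.0735).

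Of 18 genes of tissue residency and the TGF-beta response 14 rose and 2 fell against each control. Cd69, which holds lymphocytes in tissue by binding S1pr1, had 58.6, 19.8 and 9.90 CPM in healthy and 212 to 335 CPM in tumour libraries. It rose by 3.29 (SE 0.521), and Rgs1 by 4.11 (SE 0.268). Pmepa1, a target of TGF-beta, had means of 0.178 and 39.8 CPM. Prdm1, the gene of Blimp-1, fell by 1.70 (SE 0.251). Of 25 lineage factors 6 rose and 4 fell, 24.0% and 16.0% beside 16.5% and 14.0% over all genes. The falls numbered 1 without tumour replicate 4, 2 without healthy replicate 2 or 3 or tumour replicate 1 or 2, and 9 with the replicate block and the GC and length offset. Myb rose most, by 2.37, and Irf8, needed for NK expansion, had 409 to 493 CPM in healthy spleens, 778 to 946 CPM in tumour-bearing spleens and 1705 to 2392 CPM in tumours, rising by 2.15 (SE 0.165) and 1.20 (SE 0.143). Among 22 cytokine receptors and feedback genes 10 rose and 2 fell, 45.5% and 9.09% beside 16.5% and 14.0% over all genes. Cish, a brake on interleukin-15 signalling, rose by 4.60 (SE 0.575), Il10ra fell by 0.95, and Il2ra had means of 0.789 and 26.0 CPM.

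Interferon response genes rose against both controls. Of 37 genes 26 rose and 2 fell against healthy spleen (median 1.23), and 28 rose against tumour-bearing spleen (median 1.18). Between the spleens edgeR called 0, with 4 higher and 3 lower at an unadjusted p under 0.05, and DESeq2 called 1. Isg20, an exonuclease that degrades viral RNA, had 13.9, 1.60 and 4.13 CPM in healthy and 121, 155, 129 and 167 CPM in tumour libraries and rose by 4.87 (SE 0.403). Isg15, a ubiquitin-like modifier, had 20.0, 27.3 and 44.6 CPM in healthy and 207, 242, 194 and 166 CPM in tumour libraries and rose by 2.67 (SE 0.229). Samd9l fell by 0.63. Of 19 class I presentation genes 11 rose against each control, among them Pdia3 by 1.30 and B2m by 0.97 (SE 0.174).

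Promoters of Rsad2 and Isg15 are shown as the contrast to the cell cycle set, since interferon response genes rose against both controls. The 2 were picked by the largest rise over healthy spleen among called members whose window held the motif. Its presence in them was therefore given in advance. Not all chromosomes were used for this choice. RefSeq windows were matched for 28 of 37 members, giving 35 windows, and 16 (45.7%) held the interferon response element core, a pair of GAAA repeats 2 bases apart, on either strand within 250 bases before the start, beside 2.98% of all windows. Capitals mark the motif or its reverse complement, and matches in Isg15 overlap. The windows lie at chr12:26456453-26456702 and chr4:156200819-156201068, both on the minus strand.
Rsad2: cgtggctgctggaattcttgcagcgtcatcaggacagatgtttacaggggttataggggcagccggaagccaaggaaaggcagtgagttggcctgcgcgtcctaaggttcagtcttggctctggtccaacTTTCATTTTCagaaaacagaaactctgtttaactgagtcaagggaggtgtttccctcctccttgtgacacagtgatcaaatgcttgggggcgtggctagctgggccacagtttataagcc
Isg15: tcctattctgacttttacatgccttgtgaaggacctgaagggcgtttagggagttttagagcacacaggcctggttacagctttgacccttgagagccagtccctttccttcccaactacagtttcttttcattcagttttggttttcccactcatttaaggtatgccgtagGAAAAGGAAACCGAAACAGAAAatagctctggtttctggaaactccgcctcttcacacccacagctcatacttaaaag
Isg15 held 3 matches and Rsad2 held 1. Rsad2, viperin, had 3.08, 1.07 and 0.825 CPM in healthy spleens, at or under the limit of a 0 count, and 18.0, 34.8, 14.4 and 12.4 CPM in tumours. The AP-1 motif TGANTCA was in 1 of 34 windows of immediate early genes (2.94%, beside 6.75% of all) and in 17.1% of interferon response windows. ACGTG was in 20 of 35 windows of hypoxia genes (57.1%, beside 16.6%). It was also in 35.3% of immediate early windows and 5.71% of interferon response windows.

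Genes of acute signalling rose as a group. Of 29 immediate early genes 27 rose against healthy spleen (median 2.71), and against tumour-bearing spleen 27 rose and 1, Egr3, fell (median 2.24). Jun had 13.9, 12.8 and 7.43 CPM in healthy spleens, 28.2 to 44.1 CPM in tumour-bearing spleens and 102 to 165 CPM in tumours, rising by 3.61 (SE 0.268) and 1.97 (SE 0.197). Egr1 rose by 3.15 (SE 0.278) and 1.18 (SE 0.207). Jun, Egr1, Egr2, Egr3 and Dusp2 were the members that also rose from healthy to tumour-bearing spleen, 17.2% beside 1.23% over all genes. Leaving out a library gave 3 to 7 such members, and the calls of Egr2 and Egr3 between the spleens were lost without healthy replicate 2. Maff had a mean of 0.357 CPM in healthy and 178 CPM in tumour libraries. Of 17 genes of NF-kappaB and its feedback 15 rose against each control. Cd83 had means of 1.38 and 26.6 CPM, and Tnfaip3, the inhibitor A20, had 194, 71.7 and 33.0 CPM in healthy and 1141 to 1574 CPM in tumour libraries.

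Of 16 heat shock genes 9 (56.2%) rose against healthy spleen, beside 16.5% over all genes. Against tumour-bearing spleen 4 rose and 3 fell, 25.0% and 18.8% beside 15.8% and 13.2% over all genes. Hsp90ab1, the constitutive cytosolic Hsp90, had 325, 460 and 474 CPM in healthy spleens, 848 to 1087 CPM in tumour-bearing spleens and 764 to 994 CPM in tumours. It rose 2.10-fold against healthy spleen (log2 1.07, SE 0.165) and had −0.11 (SE 0.147) against the other control. Hspe1, the mitochondrial Hsp10, rose by 1.08 (SE 0.18) with 0.14 (SE 0.156) against the other. Hspa1a, which heat and enzymatic digestion can induce, had 0 CPM in all healthy libraries and 25.7 to 46.7 CPM in tumours.

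Of 19 genes of the unfolded protein and integrated stress response 15 rose against healthy spleen (median 0.78) and 8 against tumour-bearing spleen (median 0.30). Hspa5, the chaperone BiP, rose most, by 2.04. Psat1, an enzyme of serine synthesis, had 15.4, 18.7 and 15.7 CPM in healthy spleens, 36.8 to 44.1 CPM in tumour-bearing spleens and 29.5 to 40.3 CPM in tumours. It rose by 1.09 (SE 0.219), with −0.10 (SE 0.176) against the tumour-bearing spleen. Mthfd2, a mitochondrial folate enzyme, rose by 1.95 (SE 0.273) and 0.71 (SE 0.21). Of 14 genes of oxidative stress and iron storage 7 rose, and Osgin1 had means of 2.92 and 248 CPM.

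Of 25 genes of hypoxia and glycolysis 14 rose against healthy and 13 against tumour-bearing spleen. Vegfa had 12.3, 10.2 and 7.43 CPM in healthy and 134 to 194 CPM in tumour libraries and rose by 4.12 (SE 0.326). Ldha, lactate dehydrogenase, rose by 1.06 (SE 0.14) and 0.51 (SE 0.125), from 331 to 423 CPM through 522 to 601 CPM in the tumour-bearing spleen to 757 to 832 CPM. Of 7 receptors and enzymes of prostaglandin, adenosine and related signals 2 rose, Nt5e (2.80) and Gpr132 (2.68), and 2 fell, Hrh2 (−1.22) and Tbxa2r. That is 28.6% each way in a short list, beside 16.5% and 14.0% over all genes.

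Of 72 ribosomal protein genes 21 (29.2%) rose against healthy spleen, Rpl5 by the most (1.25), beside 16.5% over all genes. That count ranged from 13 to 50 over the alternatives. Against tumour-bearing spleen 13 (18.1%) rose, near the 15.8% over all genes. Of 72 oxidative phosphorylation subunits 13 rose, Atp5md by the most. That is 18.1%, near the 16.5% over all genes. Ndufs7 fell, a call lost in 6 of 16 alternatives. Their median was 0.15 against healthy and −0.11 against tumour-bearing spleen. Of 36 proteasome subunits Psmc6 and 1 other rose and Psmd5 fell, 5.56% and 2.78%, below the shares over all genes. The call of Psmc6 was lost in 8 of 16 alternatives, with a log2 value down to 0.08.

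**Figure D4:**
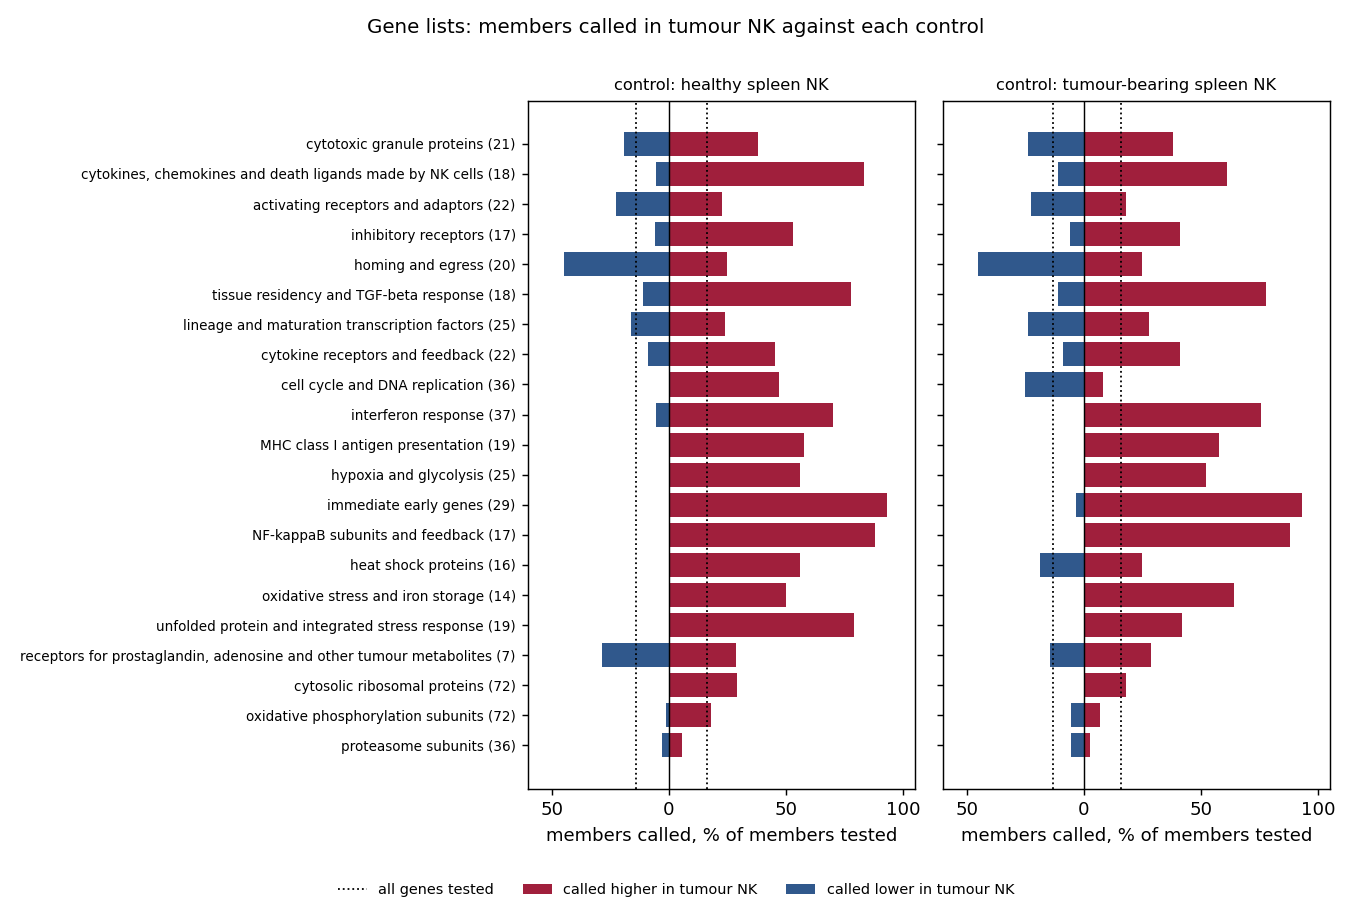
Share of tested members of each gene list called higher (red, to the right) and lower (blue, to the left) in tumour NK, in percent of members tested, against healthy spleen NK (left panel) and tumour-bearing spleen NK (right panel). The number tested stands in brackets and dotted lines mark the shares over all genes tested; of the cell cycle genes 47.2% are called higher in the left panel, against 8.33% higher and 25.0% lower in the right panel.

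The NK label was checked against markers. The 10 NK marker genes held 1.82% to 2.17% of tumour NK counts, 2.78% to 3.22% of healthy spleen NK counts and 2.62% to 2.96% of tumour-bearing spleen NK counts. The exact two-sided permutation test of the first 2 gave p = 0.0286, the smallest that 35 arrangements allow, and 0.0514 after adjustment over 9 lists. These counts were mostly Gzma, with means of 17180 CPM in healthy and 13270 CPM in tumour libraries, a difference that was not called. Klrb1c, Klre1, Ncr1 and Prf1 were called lower against healthy spleen. Nkg7, Klrd1, Klrk1, Tbx21 and Eomes were not called, and Eomes had means of 566 and 629 CPM. In bulk samples fewer cells of a type and less RNA per cell cannot be told apart. Type 1 innate lymphoid cell markers (8 listed, among them Cxcr6 and Tnfsf10) took 0.0568% to 0.0706% in tumours and 0.00958% to 0.0184% in healthy spleens, also p = 0.0286 in the exact permutation test. Neutrophil markers (5 listed) took 0.00566% to 0.0153% against 0.000169% to 0.000893%, and 2 epithelial markers 0.0025% to 0.0051% against at most 0.000357%. The epithelial counts were mostly Cdh1, with a tumour mean of 42.0 CPM, and Epcam had 4.06 CPM. Dendritic cell markers (4 listed) took 0.0371% to 0.0461% against 0.0207% to 0.0242%, and 0.0325% to 0.0403% in tumour-bearing spleens. Itgax, the most abundant of them, was not called against healthy spleen, while H2-Aa, H2-Ab1 and Zbtb46 rose. Type 3 innate lymphoid cell markers (2 listed) took 0.01% to 0.0132% against 0.0014% to 0.00163%. These were mostly Kit, with a tumour mean of 122 CPM, and Il22 had 3.24 CPM. The neutrophil, dendritic cell and type 3 lists each had p = 0.0286 in the exact permutation test and 0.0514 after adjustment. The 1 endothelial marker listed took 0.0131% to 0.0185% against 0.00482% to 0.0081%. Macrophage markers reached 0.0234% in tumour replicate 3. T cell markers (3 listed) took 0.00592% to 0.00981% in tumours, 0.005% to 0.00793% in healthy spleens and 0.0106% to 0.0144% in tumour-bearing spleens. Cd3d is one of these 3 markers. Cd3g, the next most abundant of them, had means of 32.2, 45.5 and 32.0 CPM in healthy spleens, tumour-bearing spleens and tumours, and was called in none of the comparisons. The part of these cells in the results was not tested.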

How the data were processed

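Polyadenylated RNA of sorted NK cells was sequenced from its 3' end, per the labels' protocols. The deposited table holds raw counts per gene symbol for 11 NK libraries, and the submitters' processing notes name bcl2fastq, STAR 2.4.2a, HTSeq and mm10. Whether molecular identifiers were used is not given in the sources used here. All values were whole numbers, the table listed 10210 genes and none was mitochondrial. Every listed gene reached 6 counts in some library, so low genes were removed before deposit and totals are not sequencing depths.

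Counts were tested in edgeR 4.0.16 (R 4.3.3) with filterByExpr (8471 genes), TMM scaling and a robust quasi-likelihood fit to all 11 libraries with group as the only term. Calls were made at 0.05 after Benjamini-Hochberg adjustment across the 8471 genes. Levels are CPM on TMM effective library sizes. Fold changes are fitted values, shown without a fold where a group mean was under 3 counts per library. On simulated data the tumour against healthy contrast recovered 91.8% of genes changed 4-fold and 63.3% of those changed 2-fold, with 14 false calls among 8266 genes. Only 98 tested genes were changed at each fold, in tumour libraries alone. The simulation held no split of the spleen libraries and no difference between the spleens, so it does not give the error rate of the real fit. Marker shares were compared by exact two-sided permutation. Alternatives were RLE and upper-quartile scaling, no filter, DESeq2 1.42.0, 2 groups only, a replicate block, a GC and length offset (GENCODE M21), single controls and leaving out each library. The 14 samples of the series include 3 fibroblast libraries not used here.

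Named genes were the 10 largest called, non-overlapping rises and falls against healthy spleen whose lower group averaged 3 or more counts per library, up to 8 per direction called against healthy spleen in both tissues and not between them, all with opposite calls against the controls, up to 6 per direction of the reverse case, and members of the 21 gene lists. Gm, Rik and pseudogene-like names were left out. Members and lists were chosen with earlier results of these data known. Promoters came from RefSeq on GRCm38.p6.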

Additional observations from a re-analysis of the deposited data

Results flagged for a closer look

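In the 2 groups of 4 libraries, 128 genes were examined, and 21 values stood apart from the other 3 of their group by a gap past Dixon's 95% critical value. Chance alone gives this in about 1 in 20 groups. Values below are CPM, followed by the range of the other 3 libraries.

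Among tumour NK libraries, replicate 1 was low for Prf1 (478, others 683 to 722) and Ube2c (12.3, others 23.2 to 25.3) and high for Cxcr6 (113, others 75.2 to 81.1) and Psmc6 (166, others 142 to 144). Tumour replicate 2 was low for Ugt1a6b (50.7, others 63.1 to 64.7) and H2ac8 (0, others 5.74 to 6.66) and high for Rpl5 (31.9, others 22.8 to 23.8). Tumour replicate 3 was high for Mxd3 (11.4, others 4.35 to 4.92) and Uhrf1 (14.4, others 2.85 to 4.1) and low for Gzme (15.6, others 33.3 to 34.4). Tumour replicate 4 was high for Gzmd (73.2, others 46.7 to 50.7) and Pdcd1 (30.4, others 11.4 to 13).

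Among tumour-bearing spleen libraries, replicate 1 was low for Cx3cr1 (89.9, others 143 to 151) and Gzmb (1030, others 1160 to 1180) and high for S1pr1 (8.38, others 5.06 to 5.58). Replicate 2 was high for Gzme (0.558, others at 0). Replicate 3 was low for Klrb1c (310, others 329 to 332) and Pdia3 (133, others 184 to 195) and high for Gapdh (507, others 7.96 to 8.93). Replicate 4 was high for Lag3 (52.8, others 17.3 to 20.1) and Psat1 (44.1, others 36.8 to 37.6).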

How the results depend on the processing

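Over the alternatives that gave a value, 12 to 16 for each gene, 45 of 72 named genes kept their call against healthy spleen, 49 of 61 against tumour-bearing spleen and 11 of 35 between the spleens, and no called gene reversed. Leaving out 1 library gave 1056 to 1565 higher and 782 to 1406 lower genes against healthy spleen, and 35 to 100 higher and 7 to 25 lower genes between the spleens. Lower genes between the spleens numbered 7 without healthy replicate 2, 8 without healthy replicate 3, 18 without tumour-bearing spleen replicate 1 and 16 without replicate 4. Lower genes against healthy spleen numbered 782 without healthy replicate 2. With healthy replicate 1 as the only control there were 761 higher, 338 lower and 3 cell cycle rises. The lower genes between the spleens were 18 with the replicate block, 71 with the GC and length offset and 47 with both, and with the side of the spleen libraries as a block 443 were higher and 248 lower. Cell cycle rises against healthy spleen were 11 with only the 2 groups in the fit and 7 to 16 leaving out a library. Cell cycle falls against tumour-bearing spleen were 15 with the replicate block and GC offset and 5 to 14 leaving out a library, the ends being without tumour replicates 2 and 3. Cell cycle rises between the spleens were 27 with the side as a block and 2 to 16 leaving out a library. Fits with the side as a block have less spread by construction, because the side was read from the same counts. The cause of these moves was not tested; fits that leave out libraries also have fewer samples.

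With the replicate block 1469 genes were higher and 1179 lower against healthy spleen. Same-numbered deviations correlated at −0.186, −0.195 and 0.0445 between tumour and healthy libraries. They correlated at −0.0471 to 0.288 between tumour and tumour-bearing spleen and at −0.353 to 0.501 between the spleens. Libraries of different number were not compared in this way. These values therefore cannot decide whether same-numbered samples came from the same mouse. Depth limits genes near 3 counts, most of all in healthy replicate 1.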

Other observations

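Gapdh, a glycolytic enzyme often used as a reference gene and a member of the hypoxia and glycolysis list, was singled out after its values were seen. It had 436 CPM in healthy replicate 2 and 1.54 to 6.603 CPM in the other healthy spleens, 8.38, 8.93, 507 and 7.96 CPM in tumour-bearing spleens, and 8.20, 14.5, 18.0 and 11.4 CPM in tumours. Healthy replicate 2 and tumour-bearing spleen replicate 3 were high and the other 9 libraries low. Gapdh was not called against healthy spleen at −3.59 on the log2 scale (SE 2.10, edgeR quasi-likelihood adjusted p 0.24).

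Of 72 oxidative phosphorylation subunits, 18 had an unadjusted p under 0.05 for a higher level in tumour-bearing than healthy spleen in edgeR, where 0 were called. DESeq2 called 2, and 23 were called with the side of the spleen libraries as a block in the 7 spleen libraries. That side was read from the same counts, which lowers the spread in that fit by construction. The median of the list was 0.28, beside −0.0042 over all genes.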
